A study of Bos taurus with 24 samples.

Results

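Prostasin, matriptase, their Kunitz inhibitors and a sodium channel subunit were followed in single early bovine blastocysts through 6 genes of the 24621 in the count table: PRSS8, ST14, SPINT1, SPINT2, TMPRSS2 and SCNN1A. PRSS8 was chosen by its near loss of counts in embryos produced in serum-containing medium, so its levels in the comparisons with serum are given as a description without a test. The other 5 genes were chosen for what their proteins do. Each embryo was 1 replicate, with 8 in vivo derived embryos (5 male, 3 female), 8 produced in serum-containing medium (3 male, 5 female) and 8 produced in serum-free medium (5 male, 3 female), here called in vivo, serum and serum-free embryos. In vivo embryos were flushed from 3 superovulated Holstein cows 7 days after insemination. Some of the 8 therefore share a dam, and the uterine environment and superovulation came together with that group. The in vitro embryos came from oocytes of slaughterhouse Holstein ovaries and were fertilized with semen of the same bull. They were harvested on days 6 and 7 of 3 experiments, so embryo age may differ from that of the in vivo group. Serum embryos met 20% fetal bovine serum during oocyte maturation and 5% during culture in SOF medium. Serum-free embryos met 20 ng/mL epidermal growth factor during maturation and 0.4% bovine serum albumin with insulin, transferrin and selenium during culture, so maturation and culture additions cannot be told apart. All were early blastocysts of the best morphological grade, and the donor cow, experiment and sequencing lane of each embryo are not given in the sources used here.

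Prostasin, encoded by PRSS8, is a serine protease held on the cell surface by a lipid anchor, and matriptase, encoded by ST14, spans the membrane of epithelial cells. Each can take part in activating the other, and the Kunitz inhibitors HAI-1 (SPINT1) and HAI-2 (SPINT2) bind and restrain them. The pair is known for its part in tight junctions and in the activation of the epithelial sodium channel, whose alpha subunit is SCNN1A, while TMPRSS2 is a related transmembrane protease. In the blastocyst the trophectoderm is the outer epithelium that seals the embryo and moves sodium and water into the cavity.

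Levels are given in CPM, the exon counts of a gene per 1000000 counts of the embryo after TMM normalization, a scaling that makes libraries comparable. Levels were not divided by gene length, so they are compared between embryos and not between genes. The embryos had between 3253051 and 9000447 counts, and 1 count was worth between 0.115 and 0.312 CPM in the serum embryos. A gene was tested where every embryo of at least 1 group had 15 counts or more, and it passed when it changed at least 2-fold and its adjusted p-value was under 0.05. Of the 6 genes, 4 reached that count limit in at least 1 condition, and TMPRSS2 and SCNN1A did not. Serum embryo B2 stood apart, with a median correlation to the other serum embryos of 0.77 against 0.862 to 0.898 for the rest, and values without it are given below.

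PRSS8 was read at substantial levels in every in vivo and every serum-free embryo and was close to 0 in every serum embryo. The 8 in vivo embryos had from 15.3 to 115 CPM with a median of 51.9, and the 8 serum-free embryos had from 5.89 to 335 CPM with a median of 19.9. In the serum embryos the raw counts were 0 in B1, B3 and B6, 1 in B4, B5 and B7, 2 in B2 and 5 in B8, and the highest level was 0.911 CPM. The lowest in vivo embryo, A4, and the lowest serum-free embryo, C10, both lay above the highest serum embryo, so the ranges did not overlap. These values were used to choose the gene.

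The mean PRSS8 level was 57.8 ± 36.1 CPM (SD, n = 8) in vivo, 68.5 ± 112 CPM (SD, n = 8) in serum-free medium and 0.251 ± 0.318 CPM (SD, n = 8) in serum. All serum embryos together held 10 PRSS8 counts (95% exact Poisson interval 4.8 to 18.4, counting error only), against 2076 in the in vivo and 2206 in the serum-free embryos. The fitted log2 fold change was 7.71 (SE 0.625) for in vivo over serum and 7.96 (SE 1.01) for serum-free over serum. Without B2 these log2 fold changes were 7.85 and 8.10. PRSS8 varied widely among serum-free embryos, and C7 at 335 CPM lay above all other embryos, followed by in vivo embryo A1 at 115 CPM and serum-free embryo C8 at 101 CPM.

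**Figure D1:**
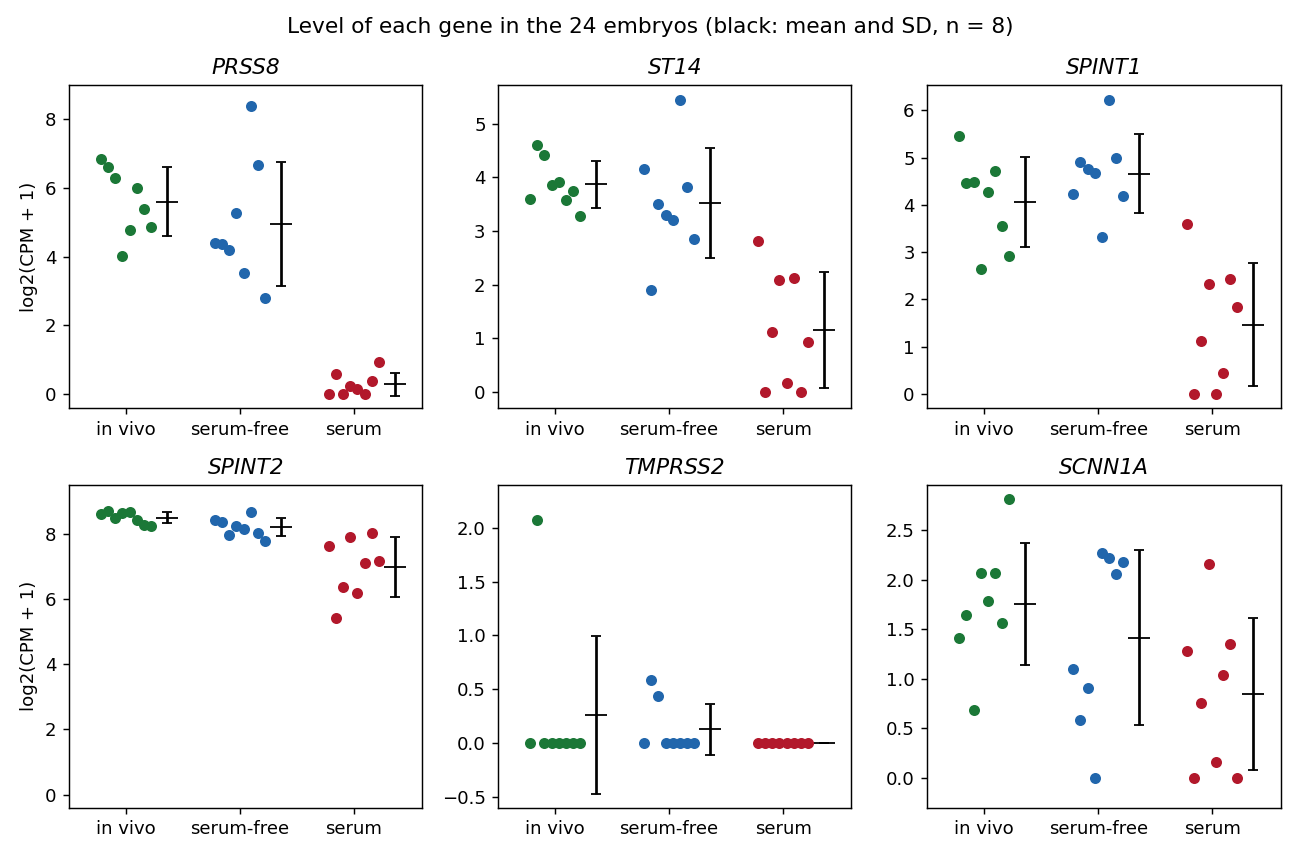
Level of the 6 genes in each of the 24 embryos as log2(CPM + 1), by condition, with 1 point per embryo and the mean and SD of the plotted values in black (n = 8). PRSS8 stays below 0.911 CPM or at that level in all serum embryos, SPINT2 is read in every embryo, and TMPRSS2 is at 0 counts in all but A2, C2 and C3.

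The libraries do not mark the strand of the RNA, and on the RefSeq assembly ARS-UCD2.0 PRSS8 overlaps KAT8, a histone acetyltransferase gene. KAT8 had 69.4 ± 16.4 CPM in vivo, 67.2 ± 12.2 CPM in serum-free medium and 75.2 ± 16.5 CPM in serum (SD, n = 8 each). The KAT8 means thus lay within 1 SD of each other in all 3 conditions. SPINT1 overlaps PPP1R14D, which had a mean of 0.787 CPM or less in each condition.

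ST14, the gene of matriptase, was higher in vivo than in serum. The in vivo embryos had from 8.73 to 23.3 CPM with a median of 13, and the serum embryos had from 0 to 5.99 CPM with a median of 1.03. The groups did not overlap, and B2 and B7 had no ST14 count, which allows up to 3 counts in each (0.734 and 0.936 CPM). Means were 14.3 ± 4.99 and 1.85 ± 2.16 CPM (SD, n = 8 each), a log2 fold change of 2.96 (SE 0.637, adjusted p = 0.00267, edgeR quasi-likelihood test). Leaving out each embryo in turn kept the adjusted p at or below 0.00636, and the log2 fold change was 2.74 without B2 (adjusted p = 0.00199).

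SPINT1, the gene of the inhibitor HAI-1, was also higher in vivo than in serum, with 1 serum embryo inside the in vivo range. The in vivo embryos had from 5.25 to 43.1 CPM with a median of 19.6, and the serum embryos had from 0 to 11.1 CPM with a median of 1.85. Serum embryo B1 was the one that overlapped, and B2 and B5 had no SPINT1 count. Means were 18.9 ± 12.2 and 2.95 ± 3.73 CPM (SD, n = 8 each), a log2 fold change of 2.73 (SE 0.747, edgeR adjusted p = 0.0113). Without B2 it was 2.51 (adjusted p = 0.011).

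SPINT2, the gene of the inhibitor HAI-2, was read in every embryo and was 2.50-fold higher in vivo than in serum. The in vivo embryos had from 301 to 415 CPM with a median of 369, and the serum embryos had from 41.3 to 259 CPM with a median of 139. The groups did not overlap, and B2 was the lowest serum embryo. Means were 362 ± 44.3 and 145 ± 79.1 CPM (SD, n = 8 each), a log2 fold change of 1.32 (SE 0.286, edgeR adjusted p = 0.00276), and 1.15 without B2 (adjusted p = 0.00123).

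Across the transcriptome 7.34% of the 7339 genes tested were called higher in vivo and 6.43% lower. SPINT2 reached 15 counts in each of the 16 embryos. PRSS8, ST14 and SPINT1 reached the count limit only through the in vivo embryos, so a low level in serum did not keep them from the test while a low level in vivo would have, and the number of members that passed is not read as support. In bulk RNA of whole embryos, fewer cells of a type and less RNA per cell cannot be told apart.

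Between serum-free and serum embryos, SPINT1 and SPINT2 were higher in serum-free medium, while 5.36% of the 7181 genes tested were called higher and 3.55% lower. SPINT1 had from 8.95 to 73.9 CPM with a median of 25.2 in the serum-free embryos, and only serum embryo B1 lay above the lowest of them. Its mean was 28.5 ± 19.7 CPM (SD, n = 8), a log2 fold change of 3.32 over serum (SE 0.745, edgeR adjusted p = 0.00931), and 3.12 without B2 (adjusted p = 0.00828). SPINT1 reached the count limit here only through the serum-free embryos, since 2 of 8 serum embryos had 15 counts or more. That it passed is not read as support. SPINT2 had from 219 to 402 CPM with a median of 291 in the serum-free embryos, and serum embryos B4 and B7 lay inside that range. Its mean was 297 ± 58.7 CPM (SD, n = 8), a log2 fold change of 1.04 over serum (SE 0.295, edgeR adjusted p = 0.0248). This SPINT2 change was just over 2-fold, and without B2 it was 0.88 on the log2 scale (adjusted p = 0.0221), below the 2-fold limit.

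ST14 in the serum-free embryos spanned 2.75 to 42.8 CPM with a median of 9.56 and a mean of 13.6 ± 12.6 CPM (SD, n = 8). It was not tested against serum, because C2 had 11 counts where 15 were required. With a limit of at least 1 count in any embryo, the log2 fold change of serum-free over serum was 2.84 (edgeR adjusted p = 0.0371). Serum embryos B1, B4 and B6 lay inside the serum-free range.

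Between in vivo and serum-free embryos none of the 4 tested members passed the edgeR test, with 2.20% of the 7314 genes tested called in either direction. The log2 fold change of in vivo over serum-free was -0.23 for PRSS8 (SE 0.64, adjusted p = 0.883) and 0.08 for ST14 (SE 0.396, adjusted p = 0.937). It was -0.59 for SPINT1 (SE 0.407, adjusted p = 0.437) and 0.29 for SPINT2 (SE 0.122, adjusted p = 0.172). These standard errors leave differences of more than 2-fold in PRSS8 possible in either direction, whereas the estimate for SPINT2 was narrow. The PRSS8 estimate turned to 0.91 when the high embryo C7 was left out (adjusted p = 0.29). The comparisons with in vivo and with serum-free embryos share the same serum embryos, so they are not independent of each other.

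**Figure D2:**
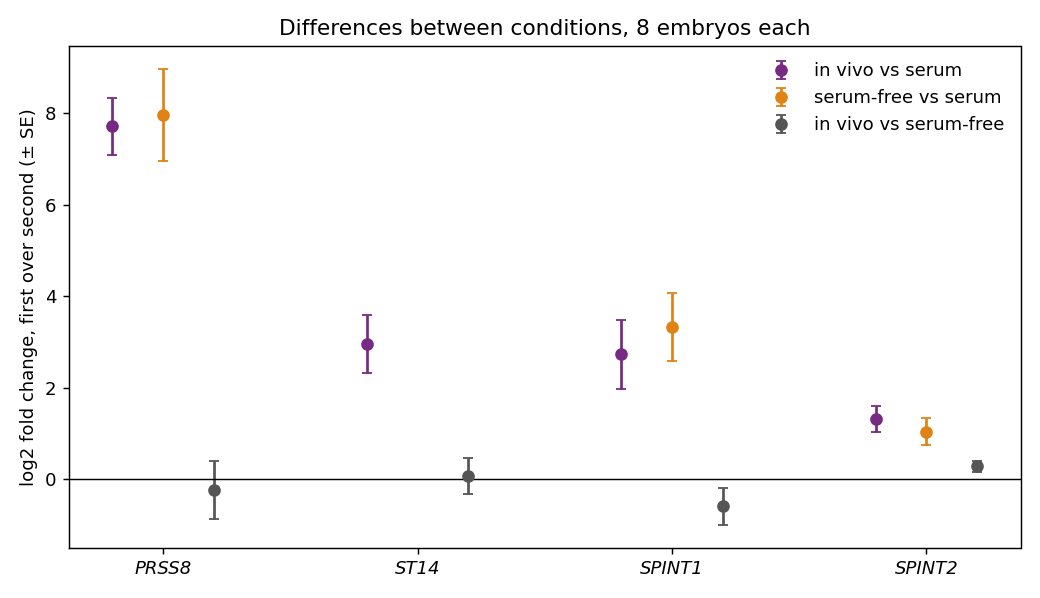
Log2 fold changes of the 4 tested members, the first condition over the second, with approximate standard errors (8 embryos per condition). The differences from serum range from 1.04 for SPINT2 to 7.96 for PRSS8, those between in vivo and serum-free embryos lie between -0.59 and 0.29, and ST14 has no point for serum-free over serum because it was not tested there.

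The amount of protease RNA beside inhibitor RNA was described as a ratio of counts within each embryo, which is comparable between embryos for the same pair of genes. The ratio of PRSS8 to SPINT2 had a median of 0.16 in vivo (0.0389 to 0.297), 0.0659 in serum-free medium (0.027 to 0.835) and 0.00099 in serum (0 to 0.0118). The counts of PRSS8 in serum that chose the gene enter this ratio, so it is a description. The ratio of SPINT2 to ST14 had a median of 29 in vivo and 29 in serum-free medium, and 70.8 in the 6 serum embryos with an ST14 count (32.7 to 623). Its ranges were 17.3 to 34.9 in vivo and 9.37 to 118 in serum-free medium, so the conditions overlapped. The ratio of ST14 to SPINT1, the other inhibitor, had a median of 1.03 in vivo (0.256 to 2.57), 0.411 in serum-free medium (0.0957 to 0.946) and 0.678 in the 6 serum embryos with a SPINT1 count (0 to 9.5), and these ranges overlapped too.

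The remaining 2 genes were close to the limit of detection. TMPRSS2 had 18 counts in A2, 2 in C2, 2 in C3 and 0 in the other 21 embryos, including all serum embryos, which allows up to 3 counts in each embryo at 0. SCNN1A had from 0.605 to 6.06 CPM in vivo, from 0 to 3.84 in serum-free medium and from 0 to 3.46 in serum. Its means were 2.66 ± 1.61, 2.09 ± 1.60 and 1.04 ± 1.16 CPM (SD, n = 8 each), and all 3 ranges overlapped. With the limit of at least 1 count in any embryo, the log2 fold change of SCNN1A for in vivo over serum was 1.33 (edgeR adjusted p = 0.302). The other channel subunits were low as well, with 2 counts of SCNN1B over all serum-free embryos and none elsewhere, and at most 6.36 CPM of SCNN1G in any embryo.

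The study also asked whether serum acted alike in both sexes. In male embryos, where 8.03% of the 7762 genes tested were called higher in vivo than in serum, SPINT2 was higher in vivo (log2 fold change 1.08, SE 0.329, edgeR adjusted p = 0.0389). ST14 had a log2 fold change of 3.04 (SE 1.05, adjusted p = 0.0613) and SPINT1 one of 2.02 (SE 1.06, adjusted p = 0.201) in male embryos. ST14 passed there with edgeR's exact test (adjusted p = 0.0312), with DESeq2 (adjusted p = 0.00891) and with the limit of at least 1 count in any embryo (adjusted p = 0.0399). Without B5 the SPINT2 change fell to 0.69 (adjusted p = 0.031). Without B1 the ST14 change was 7.29 (adjusted p = 0.000281), and the other 2 male serum embryos had 1 ST14 count between them.

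In female embryos 0.233% of the 8138 genes tested were called higher in vivo, and ST14, SPINT1 and SPINT2 did not pass the edgeR quasi-likelihood test. The log2 fold change of in vivo over serum was 2.62 for ST14 (SE 0.789, edgeR adjusted p = 0.124), 3.29 for SPINT1 (SE 0.905, adjusted p = 0.112) and 1.43 for SPINT2 (SE 0.444, adjusted p = 0.133). Without B2 each of these had an adjusted p of 0.0362, at log2 fold changes of 2.34, 3.01 and 1.22. All 3 passed with edgeR's exact test (adjusted p = 0.0172 for ST14, 0.0133 for SPINT1 and 0.0428 for SPINT2) and with DESeq2 (adjusted p = 0.0255, 0.0111 and 0.0393). In 1 edgeR fit over all 24 embryos SPINT1 (adjusted p = 0.0361) and SPINT2 (adjusted p = 0.0224) passed. PRSS8 had log2 fold changes of 8.79 in male and 6.81 in female embryos, given as a description, with means of 69.0 and 39.2 CPM in vivo and of 0.143 and 0.316 CPM in serum.

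The difference between the sexes was itself tested. In the interaction of sex and serum, 0% of 8446 genes had an adjusted p under 0.05 with edgeR (436 had an unadjusted p under 0.05, and DESeq2 called 14). In that of sex and serum-free medium it was 0% of 8425 genes (555 with an unadjusted p under 0.05, and 5 with DESeq2). The interaction with serum was 0.37 for ST14 (SE 1.42), -1.33 for SPINT1 (SE 1.48) and -0.39 for SPINT2 (SE 0.594) on the log2 scale, all with an adjusted p of 0.998. Between male and female embryos, with the condition in the model, 0.873% of 8710 genes were called and none of the members was. The log2 fold change of male over female was 0.75 for PRSS8 (SE 0.621, adjusted p = 0.72) and 0.34 for SPINT2 (SE 0.205, adjusted p = 0.564).

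Whether members varied together among embryos of 1 condition was examined for 12 pairs in the in vivo and serum-free embryos. No pair was computed in serum, because PRSS8, ST14 and SPINT1 each had fewer than 15 counts in over 4 of the 8 embryos. PRSS8 and SPINT1 had Pearson's r = 0.86 in vivo and r = 0.851 in serum-free medium (n = 8 each), with exact permutation p = 0.00707 and 0.00908. Adjusted over the 12 pairs both exact permutation p-values were 0.0545, and Spearman's rho was 0.833 and 0.786 with adjusted exact permutation p = 0.147 in both conditions. Leaving out the 2 embryos farthest from the PRSS8 median gave r = 0.659 and 0.551. PRSS8 and ST14 had r = 0.357 in vivo (adjusted exact permutation p = 0.461) and 0.736 in serum-free medium (adjusted exact permutation p = 0.162), the latter falling to 0.164 without the 2 farthest embryos. The other pairs had r from 0.142 to 0.628, and none of the 12 pairs passed after adjustment.

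The genes most like each member over the 24 embryos were taken by Pearson's r of log2(CPM + 1) among 7556 genes. The points share the split between serum and the other embryos, so r is a description. For PRSS8 they were KRT19, a keratin of simple epithelia (r = 0.927), TMEM20 (r = 0.907) and VGLL1, a cofactor of TEAD transcription factors (r = 0.898). KRT19 was also the most like SPINT1 (r = 0.884), followed by a gene listed as ENSBTAG00000047880 (r = 0.88) and CYSTM1 (r = 0.879). For ST14 they were a second actin entry listed as ACTB_2 (r = 0.921), FECH, the last enzyme of heme synthesis (r = 0.906), and P2RX4, an ATP-gated ion channel (r = 0.903). For SPINT2 they were MYL9_1, an entry for a myosin light chain (r = 0.927), PDLIM1 (r = 0.92) and TRPV5, a calcium channel (r = 0.918).

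The tissue was checked against marker lists. Of the 6 trophectoderm markers, CDX2 was low in all conditions, at most 2.52 CPM, and the other 5 were read in each condition. Their summed level was 7580 to 14800 CPM in vivo, 5030 to 28700 CPM in serum-free medium and 326 to 5190 CPM in serum, and KRT8 made up most of it in vivo and in serum-free medium. KRT8, KRT18 and GATA3 were called higher in vivo than in serum, while TFAP2C (log2 fold change -0.31, adjusted p = 0.292) and TEAD4 (-0.71, adjusted p = 0.105) did not pass (edgeR). Inner cell mass markers summed to 210 to 274 CPM in vivo, 131 to 416 CPM in serum-free medium and 175 to 319 CPM in serum. Within that list SOX2 was lower in vivo than in serum (log2 fold change -1.25, SE 0.404, edgeR adjusted p = 0.0271), and POU5F1 did not pass (0.55, adjusted p = 0.0979). NANOG, which was not tested between these groups, had 12.6 ± 8.61 CPM in vivo, 47.1 ± 74.1 CPM in serum-free medium and 65.6 ± 81.4 CPM in serum (SD, n = 8 each). Hypoblast markers summed to 347 to 604, 145 to 448 and 27.9 to 236 CPM in the same order. PDGFRA made up most of that sum, with means of 443, 220 and 108 CPM. It was called higher in vivo than in serum (log2 fold change 2.04, SE 0.381, edgeR adjusted p = 0.00101). PDGFRA was also called higher in vivo than in serum-free medium, just over 2-fold (1.01, SE 0.217, edgeR adjusted p = 0.00952). GATA6, with means of 19.4, 16.7 and 21.7 CPM, did not pass between in vivo and serum embryos (-0.16, adjusted p = 0.709). Cumulus markers stayed at or below 60.7 CPM, uterine and oviduct markers at or below 19.8 CPM and blood markers at or below 31.3 CPM in every embryo. The hypoblast marker SOX17 was at 0 counts in the in vivo and serum embryos, and the cumulus marker PTX3 in all embryos.

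The sum of the trophectoderm markers, like the levels of PRSS8, ST14, SPINT1 and SPINT2, had its lowest median in serum. Its part in the results was not tested. Within serum the sum and SPINT2 did not always go together. B7 had a sum of 456 CPM and the highest SPINT2 level, 259 CPM, while B8 had 143 CPM of SPINT2. The serum embryo with the highest sum, B8 at 5190 CPM, had 0.911 CPM of PRSS8, and the serum-free embryo with the lowest sum, C1 at 5030 CPM, had 19.9 CPM. The serum counts of PRSS8 chose the gene, so its values beside the sum are a description only. KRT8, the largest part of the sum in vivo, had a mean of 9147 CPM there and 1105 CPM in serum. TFAP2C (208.5 and 260 CPM) and TEAD4 (33.38 and 54.75 CPM) were not lower in serum. Values scaled to the sum thus depend on KRT8 and are not levels per trophectoderm cell. Per 1000 CPM of summed markers, PRSS8 was 2.02 to 10.2 CPM in vivo, 0.881 to 11.7 CPM in serum-free medium and 0 to 1.5 CPM in serum. The highest serum value was that of B2, with 2 PRSS8 counts and the lowest marker sum, and it lay above the lowest serum-free value. On the same scale ST14 had a median of 0.429 CPM in serum (0 to 3.82), 1.28 CPM in vivo (0.82 to 1.78) and 0.979 CPM in serum-free medium (0.399 to 3.36). SPINT1 had 0.566 CPM in serum (0 to 9.57), 1.44 CPM in vivo (0.693 to 3.84) and 2.56 CPM in serum-free medium (1.2 to 4.17). For both genes the serum range thus enclosed the in vivo range. SPINT2 had a median of 126 CPM in serum (27.5 to 567), 31.2 CPM in vivo (24.3 to 51.9) and 31.6 CPM in serum-free medium (14 to 67.8).

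**Figure D3:**
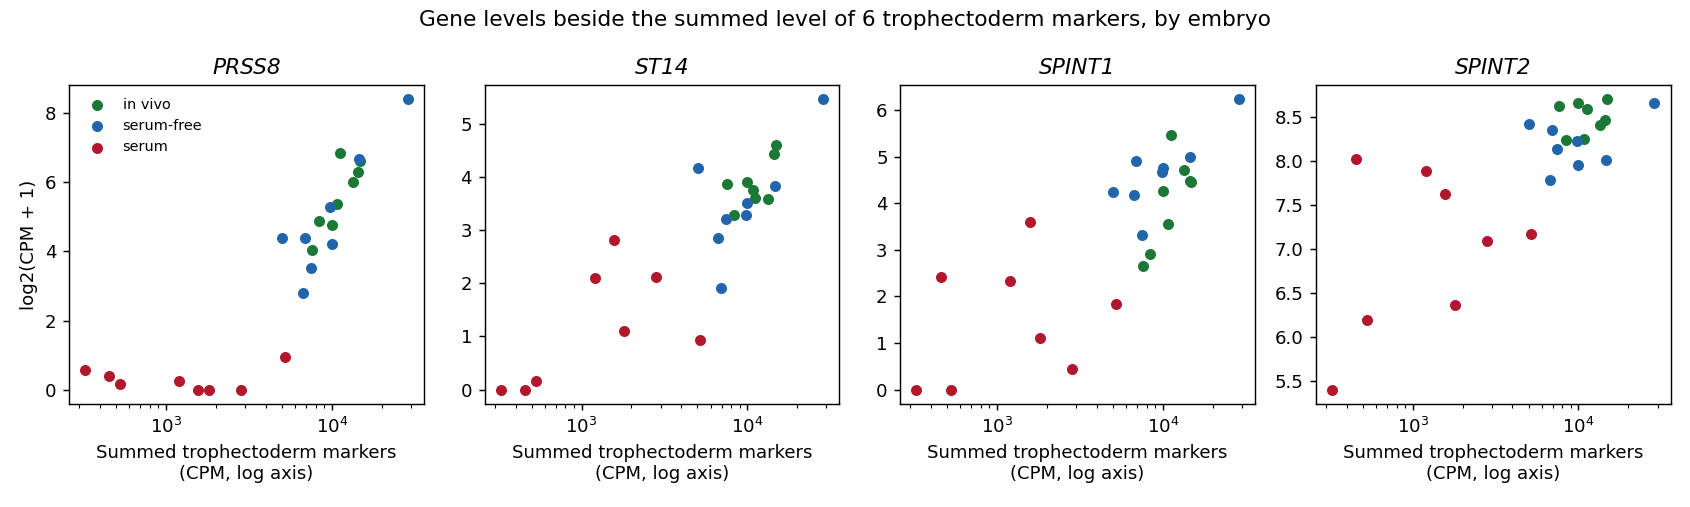
Levels of PRSS8, ST14, SPINT1 and SPINT2 as log2(CPM + 1) against the summed CPM of 6 trophectoderm markers (log axis), with 1 point per embryo and conditions by colour. Serum embryos reach sums of 326 to 5190 CPM with PRSS8 at or below 0.911 CPM. The in vivo and serum-free embryos lie from 5030 CPM on, with C7 at the upper right in the PRSS8, ST14 and SPINT1 panels. Among them PRSS8 tends to rise with the sum. SPINT2 had 341 CPM in C1 at 5030 CPM, 258 CPM in C8 at 14600 CPM and 402 CPM in C7 at 28700 CPM. Neither relation was tested.

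Other genes of the system were read in 6 lists. Substrates and receptors of these proteases had 5 of 9 tested genes higher in vivo than in serum and none lower, where 7.34% of all genes tested were higher and 6.43% lower. Their median log2 fold change was 1.37, against -0.01 over all genes tested. EPCAM, an adhesion protein that matriptase can cleave, had 438 ± 117 CPM in vivo and 106 ± 57.2 CPM in serum (log2 fold change 2.04, SE 0.296, edgeR adjusted p = 0.000158). F2RL1, the receptor PAR2 that proteases switch on, had 107 ± 16.5 and 41.3 ± 22.8 CPM (1.37, SE 0.269, adjusted p = 0.00138). PLAU, the urokinase that matriptase activates, had 228 ± 121 and 32.3 ± 26.8 CPM (2.82, SE 0.624, adjusted p = 0.00313). CLDN7, a claudin that binds EPCAM, had 29.1 ± 15.5 and 5.67 ± 4.7 CPM (2.34, SE 0.583, adjusted p = 0.00656). DSG2 (0.98, adjusted p = 0.133) and MET (0.53, adjusted p = 0.207) did not pass. The fifth gene that passed, CDCP1, a membrane protein cut by such proteases (1.44, SE 0.479, adjusted p = 0.0313), lost its call under 6 of 23 other settings.

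Junction and polarity genes had 8 of 13 tested genes higher in vivo and none lower (median 1.39), against the same 7.34% and 6.43% of all genes. Among them were KRT19 (log2 fold change 3.52, SE 0.385, edgeR adjusted p = 1.35e-05), the tight junction protein OCLN (1.39, SE 0.224, adjusted p = 0.000334), the traffic regulator RAB25 (3.30, SE 0.539, adjusted p = 0.000383) and KRT18 (2.66, SE 0.512, adjusted p = 0.00124). CLDN6 (0.68, adjusted p = 0.0102) was below 2-fold, and F11R (0.26, adjusted p = 0.166) and CGN (0.13, adjusted p = 0.742) did not pass. Of the epithelial transcription and splicing factors 4 of 10 tested were higher, GATA2 (1.98, SE 0.4, adjusted p = 0.00175), GATA3 (1.88, SE 0.525, adjusted p = 0.0124), OVOL1 (1.69, SE 0.48, adjusted p = 0.0136) and GRHL1 (1.66, SE 0.507, adjusted p = 0.02), and none lower (median 0.80). OVOL1 lost its call with the limit of at least 1 count in any embryo (adjusted p = 0.0558). GRHL2 was below the count limit, with 4.6 ± 2.15 CPM in vivo, 11.4 ± 6.07 CPM in serum-free medium and 0.634 ± 0.984 CPM in serum (SD, n = 8 each).

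Of 8 tested sodium and fluid transport genes 1 was higher in vivo and 2 were lower, where 7.34% of all genes tested were higher and 6.43% lower. SLC9A3R1, a scaffold of sodium-hydrogen exchangers, was higher (log2 fold change 1.89, SE 0.555, edgeR adjusted p = 0.0162). SGK1, a kinase that raises sodium channel activity, had 395 ± 210 CPM in vivo and 1220 ± 735 CPM in serum (-1.63, SE 0.34, adjusted p = 0.00224), and the water channel AQP3 had 238 ± 81.1 and 483 ± 215 CPM (-1.01, SE 0.245, adjusted p = 0.00537). AQP3 lay at the 2-fold limit and fell below it under 5 of 25 other settings. The sodium pump subunit ATP1B3 (0.80, adjusted p = 0.000771) was below 2-fold. Among protease inhibitors SERPINA5 was lower in vivo (-4.19, SE 0.894, adjusted p = 0.00249), while SERPINE2 (-0.39, adjusted p = 0.133) and CST3 (-0.33, adjusted p = 0.226) did not pass. Of 25 membrane proteases and proprotein convertases, 20 were in the table and only PCSK7 was tested (0.58, adjusted p = 0.324). The remaining proteases included TMPRSS4, with a mean of 3.87 CPM or less in each condition.

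**Figure D4:**
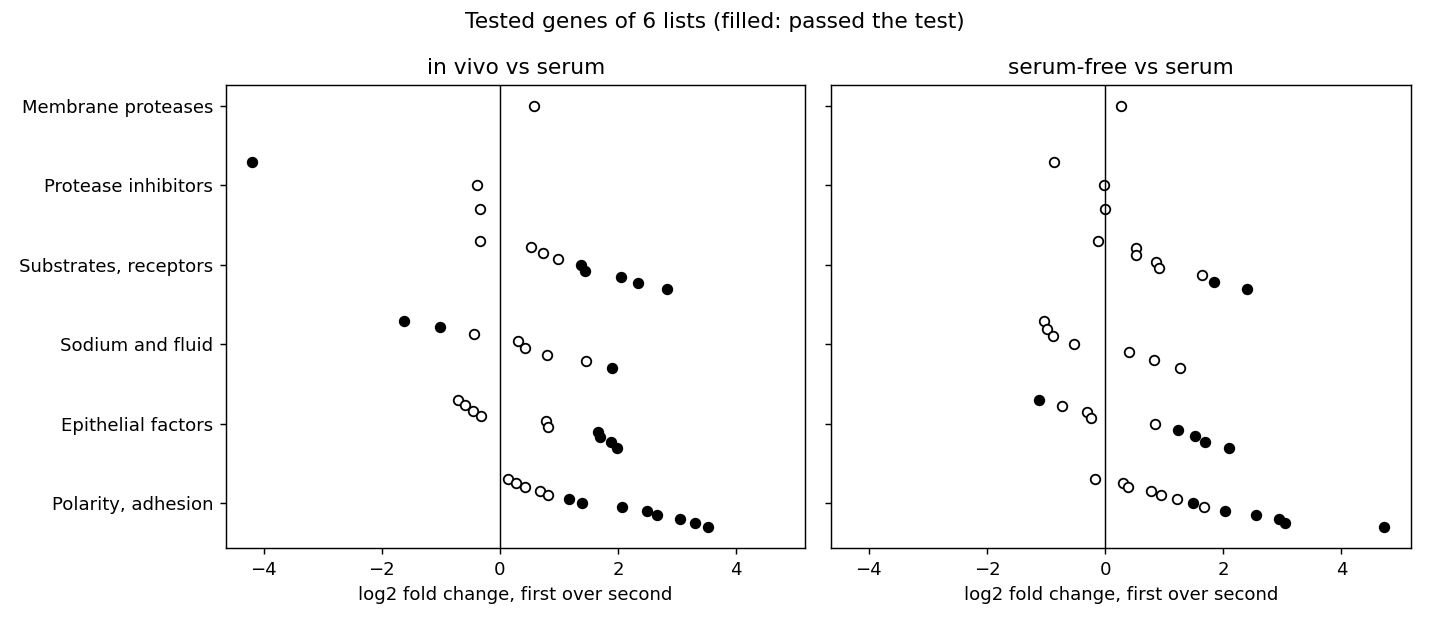
Log2 fold change of each tested gene in 6 gene lists, for in vivo over serum (left) and serum-free over serum (right), with filled points for genes that passed the test. Substrates and receptors have 5 of 9 and junction genes 8 of 13 filled points above 0 on the left, and 2 of 8 and 6 of 13 on the right.

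Many of these genes, like PRSS8 itself, reached the count limit only in 1 of the groups. Where all 16 embryos were required to have 15 counts or more, 544 of the 5743 genes tested were called, 288 of them higher in vivo. Of the lists, EPCAM and F2RL1 were called of 4 substrates and receptors, and OCLN, EZR, KRT8 and KRT18 of 7 junction genes. SGK1, lower in vivo, was called of 6 sodium and fluid genes, and none of 6 epithelial factors was. Without B2 the calls for in vivo over serum were the same genes, except that EZR fell just below 2-fold, leaving 7 junction genes. The markers KRT8, KRT18 and GATA3 stand in these lists as well as in the trophectoderm list.

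Between serum-free and serum embryos 2 of 8 tested substrates and receptors were higher in serum-free medium, against 5.36% of all genes. They were EPCAM (log2 fold change 1.84, SE 0.323, edgeR adjusted p = 0.00298) and PLAU (2.4, SE 0.683, adjusted p = 0.025). F2RL1 had a change of 0.52 (adjusted p = 0.28). Of 13 junction genes 6 were higher, led by KRT19 (4.72, SE 0.757, adjusted p = 0.00236), and of 9 epithelial factors 4 were higher and KLF4 was lower (-1.12, SE 0.291, adjusted p = 0.017). One of the 4, GRHL1 (1.52, SE 0.517, adjusted p = 0.0496), lost its call under 16 of 24 other settings. PLAU lost its call without B7 or C7 (adjusted p up to 0.0802). With 15 counts or more required in all 16 embryos, 366 of the 5642 genes tested were called. Of these, 218 were higher in serum-free medium. EPCAM was then called of 4 substrates and receptors, and EZR, KRT8 and KRT18 of 7 junction genes. Of 6 epithelial factors ESRP2 was higher and KLF4 lower. None of 7 sodium and fluid genes passed the edgeR test, with SGK1 at -0.88 (adjusted p = 0.0521) and AQP3 at -0.99 (adjusted p = 0.0148), just below 2-fold. Between in vivo and serum-free embryos 1 gene of the 6 lists was called, where 2.20% of the 7314 genes tested were. It was the water channel AQP11, with 89.3 ± 45.8 CPM in vivo and 35.1 ± 17.1 CPM in serum-free medium (1.35, SE 0.326, adjusted p = 0.0203), of 8 sodium and fluid genes. None of 8 substrates and receptors, 13 junction genes, 10 epithelial factors, 2 protease inhibitors or 1 membrane protease was called. F2RL1 (0.86, adjusted p = 0.0228), F11R (0.44, adjusted p = 0.0221) and CLDN6 (0.30, adjusted p = 0.0405) were higher in vivo but below 2-fold (edgeR). In 1 fit over all 24 embryos AQP11 did not pass (adjusted p = 0.113).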

How the data were processed

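Single early bovine blastocysts were sequenced on an Illumina HiSeq from cDNA made with a low-input kit that does not mark strand. Per the study's methods, the authors mapped trimmed reads to bovine build UMD 3.1 and deposited raw, not normalized exon counts of uniquely mapped fragments. All 24 value columns were matched to an embryo by name. Counts were compared with the quasi-likelihood test of edgeR 4.0.16 in R 4.3.3 after TMM normalization, fitting each comparison on its own groups, with Benjamini-Hochberg adjustment over all genes tested. Standard errors are approximate, from the estimate and its F statistic. Pairs were tested with exact permutation in scipy 1.17.1. The scripts were tested on simulated data. Alternatives were edgeR's exact test, DESeq2 1.42.0, other size factors, other count limits, 1 fit over all 24 embryos, sex as a covariate, counts thinned to 3253051 per embryo, and leaving out each embryo in turn.

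The members, gene lists and tests were chosen with earlier results of these data known. Of each list the text names up to 4 genes that passed per direction, by adjusted p, and up to 3 others, by mean level, and some of these are not reported here. CDCP1, EZR, GRHL2, TMPRSS4, SCNN1B and SCNN1G were named after their values were seen. Neighbouring genes came from a RefSeq table of another assembly, so no coordinates are given, and sequences were not used here. Nothing in the sources says which embryos share a cow, experiment or lane, so all embryos were tested as independent replicates. Without molecular identifiers, intervals and limits describe counting error alone.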

Additional observations from a re-analysis of the deposited data

Results flagged for a closer look

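Dixon's ratio was examined at both ends of 17 groups of 8 embryos, and chance flags about 1 in 20 groups. It picked out 1 value. TMPRSS2 had 3.198 CPM (18 counts) in in vivo embryo A2 and 0 counts in the other 7 in vivo embryos, so any single embryo with counts would be picked out there.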

How the results depend on the processing

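With at least 15 counts in every embryo of all groups, SPINT2 was the only member tested for in vivo against serum, so ST14 and SPINT1 were not checked there. Otherwise the members higher in vivo than in serum, ST14, SPINT1 and SPINT2, kept their calls under every alternative that tested them and without each embryo in turn. SPINT2 between serum-free and serum embryos did not: it fell below 2-fold or the threshold with total counts without TMM (0.96), with sex as a covariate (0.93) and without each of B2, B3, B5, C1, C2 and C7 (0.88 to 0.99). In male embryos SPINT2 lost its call with 1 fit over 24 embryos (adjusted p = 0.0559) and without 6 of the 8 embryos, while ST14 gained one with the exact test, DESeq2 and the limit of at least 1 count. In female embryos ST14, SPINT1 and SPINT2 gained calls with the exact test, DESeq2 and without B2.

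Counts of genes called over all genes moved as follows. With at least 15 counts in every embryo of all groups, 544 genes were called for in vivo against serum (1011 in the report's setting), 94 for in vivo against serum-free (161), 366 for serum-free against serum (640) and 40 for male against female (76), since fewer genes were tested. In 1 fit over 24 embryos in vivo against serum-free gave 72. In female embryos in vivo against serum gave 34 genes, and 467 with the exact test, 585 with DESeq2, 58 with at least 1 count in any embryo and 482 in 1 fit over 24 embryos, with the higher share at 55.9% in the report's setting and 41% without TMM. Of the genes called for in vivo against serum, 53.3% were higher in vivo in the report's setting, 45.8% without TMM and 46.8% with at least 1 count in any embryo. DESeq2 called 135 genes for sex, 14 for the interaction with serum and 5 for that with serum-free medium. Leaving out 1 embryo gave 890 to 1155 genes for in vivo against serum, 115 to 174 for in vivo against serum-free, 393 (without C7) to 784 for serum-free against serum, 658 (without B7) to 1755 (without B1) in male embryos, 2 to 446 (without B2) in female embryos, 62 to 87 for sex, and 0 to 3 and 0 for the interactions. The cause was not tested.

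Reversed signs concerned values that passed no test. For in vivo over serum-free, PRSS8 ranged from -0.47 to 0.91 (without C7), and ST14 was -0.0083 with thinned counts and ranged from -0.091 to 0.58 without 1 embryo. PRSS8 between the sexes ranged from -0.14 (without C7) to 1.26. SPINT1 in the serum-free interaction was 0.093 without TMM and 0.0025 with at least 1 count in any embryo. Without 1 embryo the interaction with serum ranged from -0.26 to 4.62 (without B1) for ST14, -1.98 to 0.072 for SPINT1 and -0.75 to 0.0023 for SPINT2. That with serum-free medium ranged from -2.002 to 1.73 for PRSS8, -0.42 to 0.62 for ST14 and -0.52 to 0.58 for SPINT1. The number of pairs past the threshold was 0 in the report's setting. No paired analysis was possible because embryo codes are unique and pair nothing. Levels below 15 counts, as in PRSS8 in serum, are limited by depth.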
